A study of Rattus norvegicus with 4 samples.

Results

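The genes described are 45 rat genes of potassium channels and of the related hyperpolarization-activated (HCN) channels: 38 pore-forming subunits and 7 auxiliary subunits. They were chosen by name and family, and each was read from array probes whose accession is that gene's, with the brightest probe standing for a gene that has several. All 45 were found among 15443 named genes on the array, through 62 probes. RNA was measured on 1-colour Agilent arrays, where copies of a sample's RNA carrying the dye Cy3 bind to spots of gene probes and the brightness of each spot is read.

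The groups were the cerebellum of depressive rats, the cerebellum of control rats, the prefrontal cortex of depressive rats and the prefrontal cortex of control rats, all male. Of 106 untreated rats scored for immobility in the forced swimming test, in which time spent immobile in water is read as depressive-like behaviour, the depressive group scored as depressive-like and the control group scored as average. Strain and age are not given in the sources used here. Both groups had been through the test, 1 week before tissue was taken, so the control rats were not untested animals, and the depressive state rests on this 1 score. Each group was 1 array hybridised with RNA pooled in equal amounts from 4 rats, from a coronal slice 1 mm thick, and all 4 arrays were on 1 slide. Tissue was therefore compared within depressive and within control rats, and state was compared within each tissue, always between 1 pool and 1 pool. A limma fit over all 4 arrays, with tissue and state as terms and 1 residual degree of freedom, gave the tests. In it a difference counted as called at a Benjamini-Hochberg adjusted p under 0.05 over 13052 genes. Its error joins how alike a gene's tissue difference was in both states with a value pooled over all genes tested, by limma's eBayes step. An SE of the fit is therefore not that gene's own alone, and it does not hold the spread between rats.

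Potassium channels carry potassium across the membrane of a neuron, and so set its resting potential, the width of its spikes and its firing rate. Subunits that are alike or of the same family assemble into a pore, and cytoplasmic auxiliary subunits change their gating and their number at the membrane. Fast-spiking neurons of the cerebellum are known to rely on Kv3 and Kv1 channels, cerebellar granule cells on A-type Kv4 channels, and cortical pyramidal neurons on Kv7 and calcium-activated channels for spike adaptation.

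Which array held which tissue was taken from the deposited value table, which is keyed by sample. Its columns for the prefrontal cortex of control rats and the cerebellum of depressive rats matched the scanner file linked to the other of these samples at correlations of 0.99998 and 0.99989 over probes, and their own linked file at 0.93316 and 0.93278. The labels conflict once more: on both depressive samples the free-text description names the other tissue than the title, source and tissue fields, which were followed. With files as linked, each tissue comparison becomes a state comparison, and the counts are given under the processing. Markers bear on the tissue only: all 10 granule cell markers and all 9 measured Purkinje cell markers were called higher in cerebellum, and 9 of 10 cortical neuron markers lower. The granule cell subunit Gabra6 had a scaled signal of 50507 in depressive and 51387 in control cerebellum, against 49.6 in depressive and 122 in control prefrontal cortex. All 10 choroid plexus markers were also called higher in cerebellum. Between 22206 and 23759 of 30367 probes were well above background on an array, and no member was saturated.

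Most members differed between the tissues, in both directions within the same families. In the fit, 39 of 45 members were called, 14 higher and 25 lower in cerebellum. Of all genes tested 63.9% were called. Higher calls took in 29.6% and lower calls 34.3% of all genes. The median tissue difference was -0.45 on the log2 scale over the members and -0.04 over all genes. At 2-fold or more, 23 members differed in depressive rats, 6 higher and 17 lower in cerebellum, against 24.3% of genes (9.29% higher, 15% lower). In control rats 22 did, 7 higher and 15 lower, against 24% of genes (9.86% higher, 14.2% lower). In both states 21 of the 45 passed 2-fold in 1 direction, 6 higher and 15 lower, and of all genes measured in both states 21.1% did (8.02% higher, 13% lower). In this bulk tissue, fewer cells of a type and less RNA per cell cannot be told apart.

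**Figure D1:**
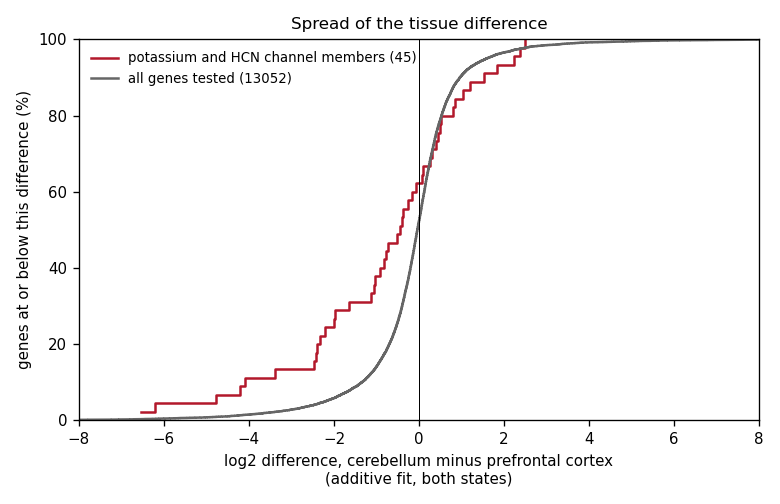
Cumulative share (%) of genes at or below each log2 difference of cerebellum minus prefrontal cortex, from the fit over both states, for the 45 members and for all 13052 genes tested. The curve of the members runs above that of all genes on the negative side, with a median of -0.45 against -0.04.

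The difference between tissues repeated in both states. Across the 45 members the log2 difference in depressive and in control rats had a Pearson correlation of 0.996 and a Spearman correlation of 0.995, a description across genes that share arrays and probes. Of the members 44 kept their sign, the exception being Hcn2, at -0.21 in depressive and 0.06 in control rats. The gap between both states had a median size of 0.17 log2 units over the members, against 0.10 over all genes, and was largest for Kcna5 at 0.64. Signals below are processed signals brought to a common 75th percentile of 3660, so that ratios match the folds, and a signal is compared only within a probe. Log2 differences are cerebellum minus prefrontal cortex with the SE of the fit. For dim members this SE is smaller than the SE between spots, which is pooled over probes of like brightness. For Kcna4 the SE of the fit was 0.05, against 0.34 between spots in depressive and 0.16 in control rats.

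**Figure D2:**
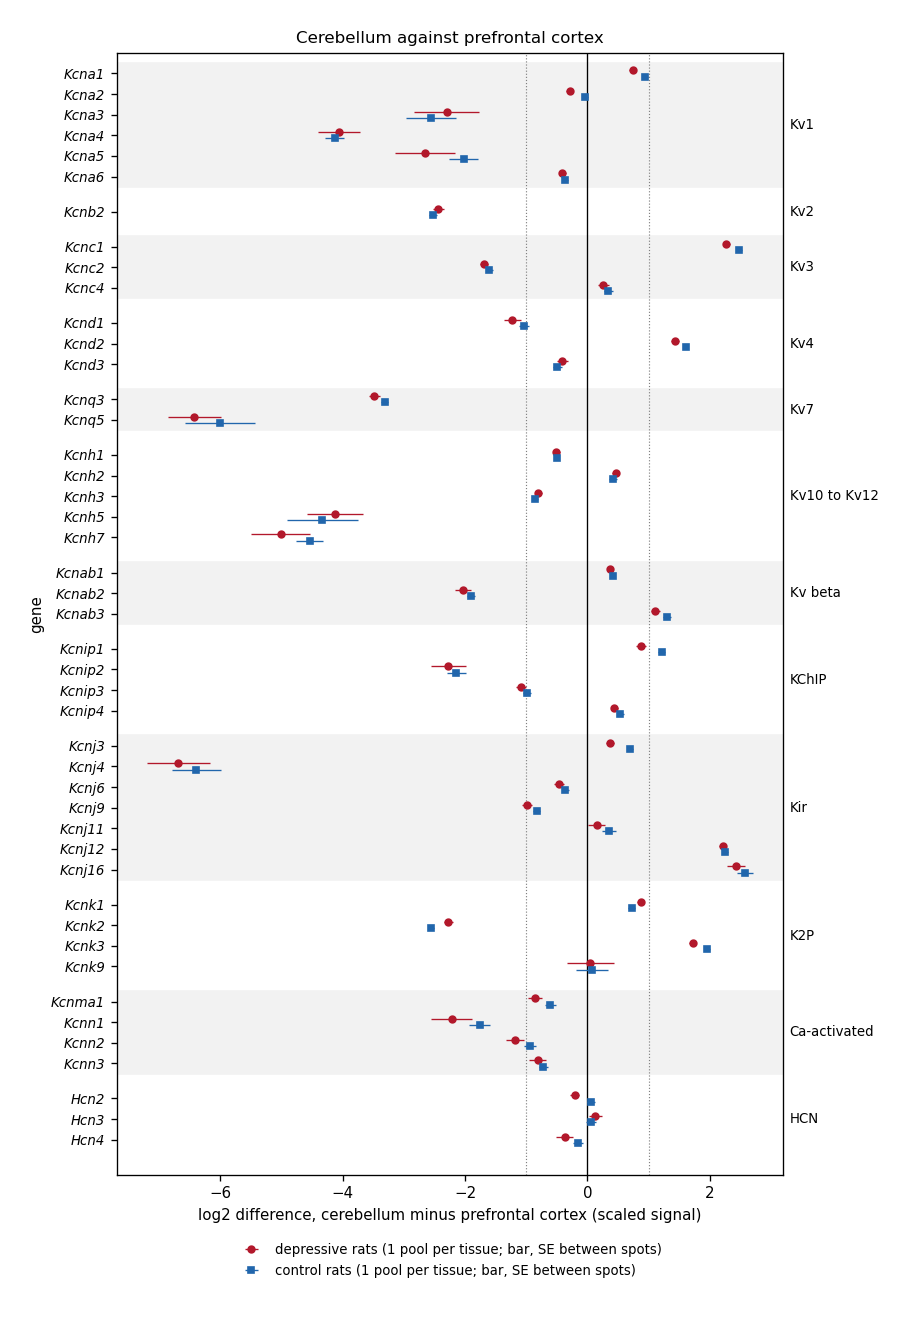
Log2 difference of cerebellum minus prefrontal cortex (x axis) for each of the 45 members (y axis, grouped by family), in depressive rats (circles) and control rats (squares). Bars are the SE between spots, pooled over probes of like brightness, with 1 pool per point, and dotted lines mark 2-fold. The 4 calcium-activated genes, both Kv7 genes and the Kv2 gene lie left of 0, whereas every other family has members on both sides.

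Paralogs with opposite differences stand out, and promoters are shown for the Kv3 pair Kcnc1 and Kcnc2 and for Kcnj16 and Kcnj4, the inward rectifiers furthest apart in the fit. They come from RefSeq's rat assembly GRCr8 and run from 250 bases before to 50 after the start of the gene, 5′ to 3′ on the gene's strand, with CG dinucleotides in capitals. Promoters of 29 of the 45 members were matched by symbol.
Kcnc1, chr1:106038997-106039296, plus strand: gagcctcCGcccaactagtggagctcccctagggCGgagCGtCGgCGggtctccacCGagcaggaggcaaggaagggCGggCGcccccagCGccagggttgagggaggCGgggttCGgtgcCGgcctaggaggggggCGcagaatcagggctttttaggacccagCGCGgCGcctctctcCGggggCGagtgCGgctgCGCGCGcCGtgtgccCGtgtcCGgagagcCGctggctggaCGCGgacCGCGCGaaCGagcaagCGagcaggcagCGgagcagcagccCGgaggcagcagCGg
Kcnc2, chr7:49587364-49587663, plus strand: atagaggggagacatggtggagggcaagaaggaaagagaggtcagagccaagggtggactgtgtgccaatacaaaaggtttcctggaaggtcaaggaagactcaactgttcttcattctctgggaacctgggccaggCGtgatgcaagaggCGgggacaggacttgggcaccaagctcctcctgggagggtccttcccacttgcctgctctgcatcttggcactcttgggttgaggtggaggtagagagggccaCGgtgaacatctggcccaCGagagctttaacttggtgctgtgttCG
Kcnj16, chr10:96517074-96517373, plus strand: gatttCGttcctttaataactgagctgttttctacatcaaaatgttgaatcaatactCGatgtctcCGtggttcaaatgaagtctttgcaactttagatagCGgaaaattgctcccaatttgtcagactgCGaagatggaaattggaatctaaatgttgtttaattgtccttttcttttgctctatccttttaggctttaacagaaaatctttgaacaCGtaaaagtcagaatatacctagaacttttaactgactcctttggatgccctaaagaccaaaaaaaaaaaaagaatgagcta
Kcnj4, chr7:112954498-112954797, minus strand: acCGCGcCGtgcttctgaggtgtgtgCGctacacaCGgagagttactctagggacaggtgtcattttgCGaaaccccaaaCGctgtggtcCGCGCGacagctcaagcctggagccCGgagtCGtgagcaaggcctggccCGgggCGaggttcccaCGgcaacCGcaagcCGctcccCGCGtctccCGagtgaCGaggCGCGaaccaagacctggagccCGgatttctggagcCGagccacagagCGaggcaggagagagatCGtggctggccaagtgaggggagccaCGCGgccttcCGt

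These windows of 300 bases held 36 CG dinucleotides for Kcnc1, 5 for Kcnc2, 6 for Kcnj16 and 30 for Kcnj4. The Kv3 gene that is higher in cerebellum thus has more of them than its paralog, and among the inward rectifiers the order is the other way. Over the 29 matched members the median was 19, against 7 over 33469 promoters of the table, which also hold those of noncoding genes. Searched on both strands, GGGCGG, the core of a GC box, occurred 3 times for Kcnc1 and not in the other 3 windows. It was present in 14 of 29 members (48.3%) and in 33.1% of all promoters. The E-box letters CAGCTG were in 5 of 29 (17.2%) and in 15.1% of all, and CAGATG in 2 of 29 (6.9%) and in 16.6% of all. TATAAA, present in 14.2% of all promoters, and the cAMP response element TGACGTCA, in 1.83%, were in 0 of 29. None of these motifs is contained in another.

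Kv1 channels open at low voltage along axons and at presynaptic terminals, and 5 of 6 members were called, 1 higher and 4 lower in cerebellum. Kcna1, the Kv1.1 subunit of axons and of the cerebellar basket cell terminal, had a signal of 27016 in depressive and 26201 in control cerebellum, against 16203 in depressive and 13662 in control prefrontal cortex. Both cerebellar arrays lay above both cortical ones, a difference of 0.84 ± 0.08 (adjusted p = 0.0109). Kcna4, the inactivating Kv1.4 subunit, had 58.1 and 60.6 in depressive and control cerebellum, against 971 and 1063 in depressive and control prefrontal cortex, a difference of -4.10 ± 0.05 (adjusted p = 0.00284). This is 17.1-fold lower in cerebellum, and 9.27-fold after normexp background correction, which pulls dim signals up.

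Kcna3, the Kv1.3 subunit that lymphocytes and microglia also use, had 19.2 in depressive and 17.3 in control cerebellum, against 94.3 and 102 in depressive and control prefrontal cortex (-2.43 ± 0.09, adjusted p = 0.00412). Kcna5, the Kv1.5 subunit, had 26.6 and 44.5 in depressive and control cerebellum, against 168 and 180 in depressive and control prefrontal cortex (-2.34 ± 0.21, adjusted p = 0.0101). Both genes were dim on the cerebellar arrays, and their folds of 5.38 and 5.06 became 2.31 and 2.63 with normexp. The pooled SE between spots exceeded these errors of the fit. It was 0.53 in depressive and 0.41 in control rats for Kcna3, and 0.49 and 0.24 for Kcna5. The spots of Kcna3 read 27.3 and 13.4 in depressive cerebellum. Of 8 microglia markers 7 were also called lower in cerebellum, with a median of -1.21; their part in the Kcna3 difference was not tested. Kcna6, the Kv1.6 subunit, had 5152 in depressive and 5401 in control cerebellum, against 6833 and 6921 in depressive and control prefrontal cortex, a smaller step (-0.38 ± 0.05, adjusted p = 0.018). Kcna2, the common partner of Kcna1, had a difference of -0.17 with a 95% interval of -0.48 to 0.15 and was not called.

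The cytoplasmic Kv beta subunits, which bind Kv1 pores, split as well: 2 were called higher and 1 lower in cerebellum. Kcnab3 had 1972 in depressive and 2091 in control cerebellum, against 911 and 852 in depressive and control prefrontal cortex (1.20 ± 0.07, adjusted p = 0.00635). Kcnab2 had 288 and 320 in depressive and control cerebellum, against 1188 and 1197 in depressive and control prefrontal cortex (-1.97 ± 0.06, adjusted p = 0.00354). Neither gene had overlapping tissues. Kcnab1, the subunit that can make Kv1 currents inactivate, had 12754 in depressive and 13208 in control cerebellum, against 9837 and 9971 in depressive and control prefrontal cortex, and was higher in cerebellum by 0.39 ± 0.05 (adjusted p = 0.0166).

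Kv3 channels open and close fast enough for narrow spikes at high rates. Kcnc1, the Kv3.1 subunit of cerebellar granule cells and fast-spiking interneurons, had 11419 in depressive and 12305 in control cerebellum, against 2359 and 2204 in depressive and control prefrontal cortex. It was 5.2-fold higher in cerebellum (2.38 ± 0.08, adjusted p = 0.0036). Kcnc2, the Kv3.2 subunit of thalamic cells and cortical interneurons, had 2060 and 2134 in depressive and control cerebellum, against 6643 and 6447 in depressive and control prefrontal cortex. It was 3.12-fold lower in cerebellum (-1.64 ± 0.06, adjusted p = 0.0036), and a second probe gave -1.79. Of 9 interneuron markers 6 were called lower and 1 higher in cerebellum, with a median of -3.45; their part in the Kcnc2 difference was not tested. Kcnc4, the Kv3.4 subunit, had 678 in depressive and 793 in control cerebellum, against 567 and 627 in depressive and control prefrontal cortex. It was higher by 0.30 ± 0.05 (adjusted p = 0.0311), a call lost without the filter on dim probes (adjusted p = 0.0601) and without state in the fit (adjusted p = 0.0815). Kcnb2, the delayed-rectifier subunit Kv2.2, had 360 and 329 in depressive and control cerebellum, against 1949 and 1887 in depressive and control prefrontal cortex (-2.48 ± 0.05, adjusted p = 0.00288).

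**Figure D3:**
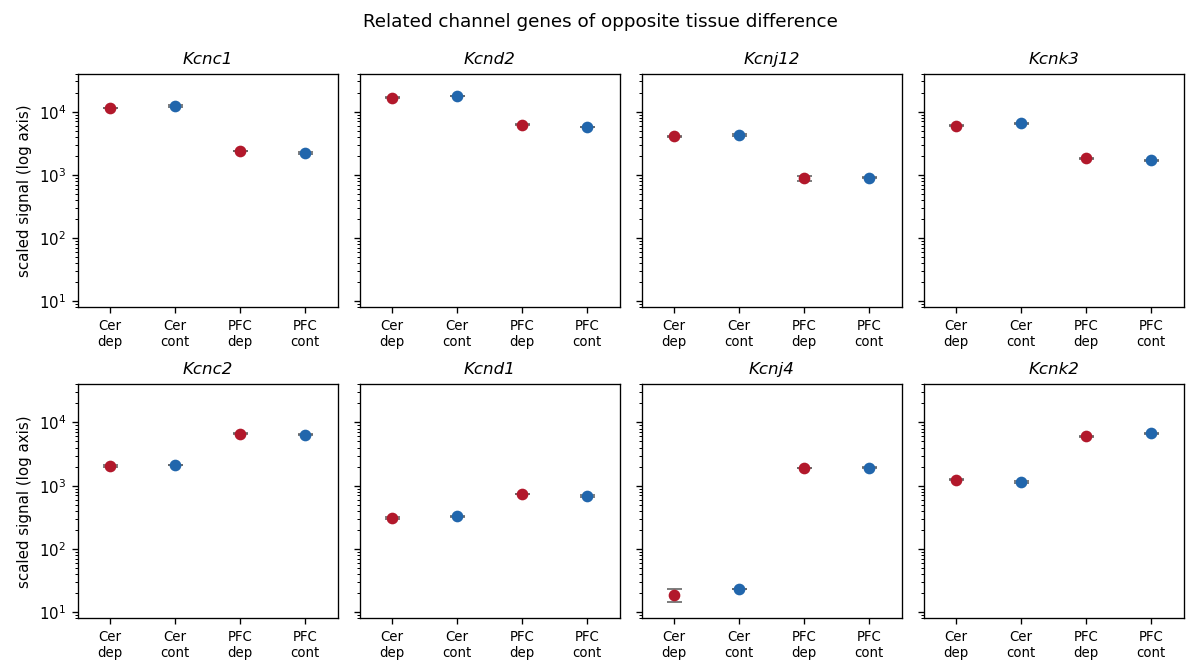
Scaled signal (log axis) of 4 pairs of related channel genes on the 4 arrays, with cerebellum (Cer) left of prefrontal cortex (PFC) and depressive (dep) left of control (cont) rats. Points are the probe's value on 1 array and short bars its spots; Kcnc1, Kcnd2, Kcnj12 and Kcnk3 (upper row) are higher in cerebellum, and Kcnc2, Kcnd1, Kcnj4 and Kcnk2 (lower row) are lower.

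Kv4 pores carry the A-type current of dendrites, and KChIP proteins are their calcium-binding partners, which raise surface expression. Kcnd2, the Kv4.2 pore, had 16725 in depressive and 17445 in control cerebellum, against 6226 and 5718 in depressive and control prefrontal cortex (1.52 ± 0.07, adjusted p = 0.0051). Kcnd1, the Kv4.1 pore, had 311 and 330 in depressive and control cerebellum, against 730 and 680 in depressive and control prefrontal cortex (-1.14 ± 0.08, adjusted p = 0.00698). The tissues did not overlap for either gene. Kcnd3, the Kv4.3 pore, had 566 and 598 in depressive and control cerebellum, against 753 and 837 in depressive and control prefrontal cortex, on its brightest probe (-0.45 ± 0.05, adjusted p = 0.0154). Its other probes gave -0.18, 0.05 and 0.22, and with the mean over probes the difference was -0.09 (adjusted p = 0.215), so that its call rests on 1 probe.

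Of the KChIP genes 2 were called higher and 2 lower in cerebellum. Kcnip1, KChIP1, had 1169 in depressive and 1479 in control cerebellum, against 642 and 640 in depressive and control prefrontal cortex (1.04 ± 0.12, adjusted p = 0.0146). Kcnip2, KChIP2, had 111 and 135 in depressive and control cerebellum, against 535 and 595 in depressive and control prefrontal cortex (-2.20 ± 0.06, adjusted p = 0.00321). Kcnip1 was the only KChIP gene at 2-fold or more upward, and in control rats only: 2.31-fold there and 1.82-fold in depressive rats. Kcnip3, which is also the transcriptional repressor DREAM, had 667 in depressive and 776 in control cerebellum, against 1424 and 1545 in depressive and control prefrontal cortex, and was lower in cerebellum (-1.04 ± 0.06, adjusted p = 0.00562). Kcnip4, with 2835 in depressive and 3069 in control cerebellum, against 2084 and 2113 in depressive and control prefrontal cortex, was higher (0.49 ± 0.06, adjusted p = 0.0146).

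Kv7 channels carry the M-current, which muscarinic receptors switch off, and both members were lower in cerebellum. Kcnq3, the Kv7.3 subunit, had 522 in depressive and 570 in control cerebellum, against 5821 and 5640 in depressive and control prefrontal cortex, 10.5-fold lower in cerebellum (-3.39 ± 0.07, adjusted p = 0.00288). Kcnq5, the Kv7.5 subunit, had 8.04 and 10.5 in depressive and control cerebellum, not well above background on either array, against 688 and 672 in depressive and control prefrontal cortex. Where a group was not well above background, its fold was computed against the higher of the lowest signal well above background on that array and the probe's own signal. Such a fold is nominal, as it rests on a reading near background. Kcnq5 was nominally 85.6-fold lower in cerebellum of depressive rats and 64-fold lower in that of control rats (adjusted p = 0.00291). Its spots read 10.4 and 6.19 in depressive cerebellum. A second, dimmer probe gave a mean difference of -4.97, against -6.21 on the brightest probe. With normexp the fitted difference of Kcnq5 was 10.9-fold.

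Among the EAG, ERG and ELK channels (Kv10 to Kv12), 1 of 5 members was called higher and 4 lower in cerebellum. Kcnh7, the ERG3 subunit, had 35.1 in depressive and 45.6 in control cerebellum, against 1131 and 1056 in depressive and control prefrontal cortex, 27.3-fold lower (-4.77 ± 0.16, adjusted p = 0.00354) and 11.3-fold with normexp. Kcnh5, the EAG2 subunit, had 9.52 and 8.5 in depressive and control cerebellum, not well above background on either array, against 165 and 171 in depressive and control prefrontal cortex. It was nominally 17.3-fold lower in cerebellum of depressive rats and 20.1-fold lower in that of control rats (adjusted p = 0.00286). Its fitted difference was 3.23-fold with normexp. Smaller differences were called for the other members. Kcnh3, an ELK channel of the forebrain, had 26636 in depressive and 28426 in control cerebellum, against 46429 and 51263 in depressive and control prefrontal cortex (-0.83 ± 0.05, adjusted p = 0.00617). Kcnh1, EAG1, had 10021 and 10178 in depressive and control cerebellum, against 14235 and 14434 in depressive and control prefrontal cortex (-0.51 ± 0.05, adjusted p = 0.0108). Kcnh2, the ERG1 channel known from cardiac repolarization, was the member called higher, at 2117 and 2254 in depressive and control cerebellum, against 1534 and 1680 in depressive and control prefrontal cortex (0.44 ± 0.05, adjusted p = 0.0139). Both of its probes gave 0.44.

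Inward rectifiers (Kir) pass potassium best near rest, and of 7 members 3 were called higher and 3 lower in cerebellum. Kcnj4, the strong rectifier Kir2.3 of forebrain neurons, had 18.6 in depressive cerebellum, not well above background, and 22.9 in control cerebellum, against 1903 and 1916 in depressive and control prefrontal cortex. It was nominally 102-fold lower in cerebellum of depressive rats and 83.6-fold lower in that of control rats (adjusted p = 0.00284), and 25.3-fold in the fit with normexp. Kcnj12, the Kir2.2 subunit of the same subfamily, went the other way, with 4068 and 4261 in depressive and control cerebellum, against 877 and 899 in depressive and control prefrontal cortex (2.23 ± 0.05, adjusted p = 0.00288). Kcnj16, the Kir5.1 subunit that pairs with Kir4.1 in glia, had 468 and 433 in depressive and control cerebellum, against 86.7 and 72.8 in depressive and control prefrontal cortex, 5.67-fold higher in cerebellum (2.50 ± 0.06, adjusted p = 0.00303) and 3.29-fold with normexp. Of 9 astrocyte and Bergmann glia markers 4 were called higher and 4 lower in cerebellum.

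The G-protein-gated Kir3 subunits among the members, which open when GABA-B, serotonin or adenosine receptors are active, differed by less. Kcnj3, the Kir3.1 subunit, had 27951 in depressive and 32182 in control cerebellum, against 21590 and 19989 in depressive and control prefrontal cortex (0.53 ± 0.11, adjusted p = 0.0404); without the filter on dim probes the adjusted p was 0.0706. Both of its partners among the members were lower in cerebellum. Kcnj9 (Kir3.3) had 946 in depressive and 1070 in control cerebellum, against 1876 and 1901 in depressive and control prefrontal cortex (-0.91 ± 0.07, adjusted p = 0.00812). Kcnj6 (Kir3.2) had 671 and 677 in depressive and control cerebellum, against 920 and 870 in depressive and control prefrontal cortex (-0.41 ± 0.06, adjusted p = 0.0195). The tissues overlapped for none of the 3. Kcnj11, the Kir6.2 pore of the ATP-sensitive channel, was not called at 0.25 (adjusted p = 0.0879), but passed with quantile normalization (0.34, adjusted p = 0.032), with median scaling (0.34, adjusted p = 0.0335), with genes above background on all arrays (adjusted p = 0.0479) and in the deposited value table (0.29, adjusted p = 0.0467).

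Two-pore-domain channels (K2P) give the leak that sets the resting potential. Kcnk3, the acid-sensitive TASK-1 channel, had 6029 in depressive and 6531 in control cerebellum, against 1829 and 1689 in depressive and control prefrontal cortex, 3.57-fold higher in cerebellum (1.84 ± 0.09, adjusted p = 0.00489). Kcnk2, the stretch- and lipid-sensitive TREK-1 channel, had 1247 and 1149 in depressive and control cerebellum, against 6009 and 6741 in depressive and control prefrontal cortex, 5.32-fold lower in cerebellum (-2.41 ± 0.10, adjusted p = 0.00438). Its 2 other probes gave -0.82 and -2.05, in the same direction. Kcnk1, the TWIK-1 channel, had 41012 in depressive and 42079 in control cerebellum, against 22432 and 25565 in depressive and control prefrontal cortex, and was higher in cerebellum by 0.79 ± 0.07 (adjusted p = 0.00946). Kcnk9, the TASK-3 channel that cerebellar granule cells are known to use, read 60.2 and 60.7 in depressive and control cerebellum, against 58.1 and 57.6 in depressive and control prefrontal cortex, through 1 probe. Its difference of 0.06 (95% interval -0.11 to 0.23) was not called, turned to -0.14 with normexp, and was 0.25 (adjusted p = 0.0416) with quantile normalization. The SE between spots pooled over probes of its brightness, 0.39 in depressive and 0.26 in control rats, is larger than the error behind that interval. Its own spots read 46.5 and 78 in depressive and 58.2 and 63.4 in control cerebellum. In prefrontal cortex they read 50 and 67.5 in depressive and 57 and 58.3 in control rats.

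All 4 calcium-activated members were lower in cerebellum. Kcnn1, the SK1 gene of the small-conductance channels that follow a spike with an afterhyperpolarization, had 83.3 in depressive and 103 in control cerebellum, against 388 and 349 in depressive and control prefrontal cortex (-1.99 ± 0.15, adjusted p = 0.00816). Kcnn2 (SK2) had 200 and 215 in depressive and control cerebellum, against 452 and 412 in depressive and control prefrontal cortex (-1.06 ± 0.09, adjusted p = 0.00935). Kcnn3 (SK3) was lower at -0.77 ± 0.05 (adjusted p = 0.00743), and Kcnma1, the large-conductance BK pore, at -0.73 ± 0.09 (adjusted p = 0.0169), read from 1 spot of its brightest probe. All 3 probes of Kcnma1 lay below 0, at -0.73, -1.22 and -0.86.

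HCN channels, which open on hyperpolarization and bind cyclic nucleotides, were the family with 0 of 3 called. Hcn2 had 957 in depressive and 1206 in control cerebellum, against 1107 and 1160 in depressive and control prefrontal cortex, so that the tissues overlapped (-0.08, 95% interval -0.42 to 0.26). Hcn3 had 454 and 477 in depressive and control cerebellum, against 415 and 458 in depressive and control prefrontal cortex (0.09, 95% interval -0.09 to 0.28). Hcn4 had 351 and 417 in depressive and control cerebellum, against 453 and 464 in depressive and control prefrontal cortex (-0.26, 95% interval -0.55 to 0.03), and it was called lower with normexp (adjusted p = 0.0181) and with genes above background on all arrays (adjusted p = 0.0478). These intervals leave out a 2-fold difference in either direction, on the error of the fit.

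Of 61 other genes of potassium channels and their partners, 56 were on the array and 53 were tested. In the fit 43 were called, 14 higher and 29 lower in cerebellum, with a median of -0.55. Of all genes 63.9% were called, 29.6% higher and 34.3% lower, with a median of -0.04. The silent Kv subunits, which act only beside Kv2 pores, were lower in cerebellum, except for Kcng4. Kcns1 was 32.4-fold lower in cerebellum in both depressive and control rats. Kcns3 was 39.8-fold and 31.1-fold lower in depressive and control rats, and Kcng1 31.3-fold and 28.3-fold. Kcng4, another of them, was 8.11-fold and 8.62-fold higher in cerebellum in depressive and control rats (3.06, adjusted p = 0.00284), and Kcns2 differed by -0.84 (adjusted p = 0.00603). Kcnf1 had 11.1 in depressive cerebellum, not well above background, and 20.3 in control cerebellum, against 1946 and 2023 in depressive and control prefrontal cortex. Kctd16, an auxiliary subunit of GABA-B receptors, was 43.9-fold and 47-fold lower in depressive and control rats. Pex5l, known as the HCN partner TRIP8b, was lower (-2.57, adjusted p = 0.00285). Kcnj13 and Kcne2, which choroid plexus epithelium expresses, were 30.1-fold and 22.4-fold higher in cerebellum of depressive rats and 25.5-fold and 13.3-fold higher in that of control rats. Kcnj13 is itself among the 10 choroid plexus markers above, and the part of choroid plexus in the 2 differences was not tested.

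The second question was whether the members differ between depressive and control rats. None of them reached 2-fold in either tissue: 0 of 43 measured members did in the cerebellum, where 1.74% of 12582 genes did (0.763% higher, 0.978% lower), and 0 of 45 in the prefrontal cortex, where 0.821% of 12544 genes did (0.462% higher, 0.359% lower). In the limma fit of state over both tissues, 0 of 45 members and 0 of 13052 genes (0%) were called. At an unadjusted p under 0.05 there were 0 members and 760 genes (5.82%). The fit did not call the red blood cell gene Hbb either, which was 6.41-fold higher in depressive rats (adjusted p = 0.769). Its 0 calls therefore do not show that the members are unchanged. The 95% interval of the state effect lay within 2-fold in both directions for 44 members, on the error of the fit. The exception was Kcna5, at -1.15 to 0.31. For dim members that error is smaller than the pooled SE between spots. For Kcnk9 the SE was 0.05 in the fit, against a pooled SE between spots of 0.37 in cerebellum and 0.28 in prefrontal cortex. Kcnq5 and Kcnh5 are among the 44 but were not well above background on either cerebellar array. For such members the interval does not exclude a 2-fold change. In both depressive pools 5 of 6 red blood cell markers were at 2-fold or more higher than in the control pools, and in depressive cerebellum 4 of 7 anterior pituitary markers were at 2-fold or more lower. Of the choroid plexus markers 9 of 10 lay above 0 in depressive cerebellum, with a median of 0.60 and none at 2-fold, and in depressive prefrontal cortex 4 of 7 measured lay below 0, all 4 at 2-fold or more, and 3 above. In depressive prefrontal cortex all 10 oligodendrocyte and myelin markers (median 0.33) and all 8 meningeal fibroblast markers (median 0.75) lay above 0, whereas in depressive cerebellum 4 of 10 and 5 of 8 did. The part of such differences in the members' values was not tested.

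**Figure D4:**
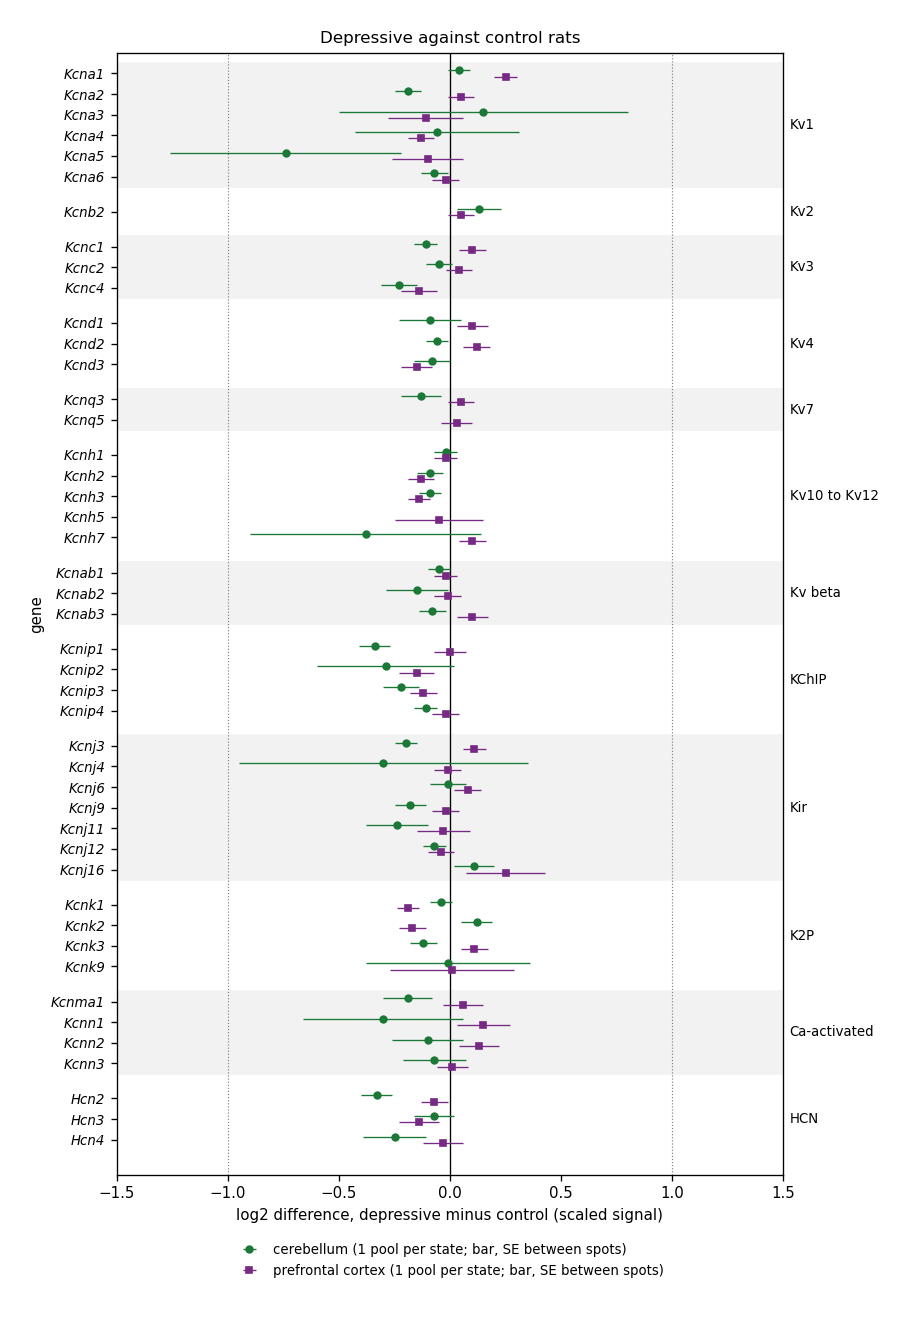
Log2 difference of depressive minus control rats (x axis) for each member (y axis, grouped by family), in cerebellum (circles) and prefrontal cortex (squares). Bars are the SE between spots, pooled over probes of like brightness, with 1 pool per point, and dotted lines mark 2-fold, which no point reaches. Kcnq5 and Kcnh5 have no cerebellar value, and that of Kcnj4 rests on a depressive signal not well above background.

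In the cerebellum 38 of 43 members lay below 0 in depressive against control rats, with a median of -0.09, whereas 60.7% of all genes did, with a median of -0.03. With median scaling it was 34 of 43 members against 46.4% of all genes. Neuronal markers moved alike there, with 10 of 10 granule cell and 9 of 9 Purkinje cell markers below 0 at medians of -0.10 and -0.13. The part of neuronal content in the members' shift was not tested. All cerebellar state values rest on the depressive cerebellum array. It had the highest additive error, a noise estimate of the scanner software, at 6.99 against 4.02 to 4.2 on the other arrays. It also had the fewest probes well above background (22206). The part of this array's noise in the shift was not tested. In the prefrontal cortex 24 of 45 members lay below 0, with a median of -0.01, beside 52.8% of all genes. Across 43 members the state difference in cerebellum and in prefrontal cortex had a Pearson correlation of 0.124 over genes, and 24 of 43 shared a sign.

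The largest values among members with enough signal were small steps. They are given with the SE between spots pooled over probes of like brightness, since 1 pool a group allows no test within a tissue. In the cerebellum Kcnip1, the KChIP1 subunit, had 1169 in depressive and 1479 in control rats, a difference of -0.34 ± 0.07; its spots read 1162 and 1176 in depressive and 1473 and 1485 in control rats. The pacemaker subunit Hcn2 had 957 in depressive and 1206 in control cerebellum (-0.33 ± 0.07). Hcn4 had 351 in depressive and 417 in control cerebellum (-0.25 ± 0.14). In the other direction Kcnb2 (0.13 ± 0.10), Kcnk2 (0.12 ± 0.07) and Kcnj16 (0.11 ± 0.09) had the highest values, each under 2 SE between spots. Dimmer probes carry a larger pooled SE: Kcna5 was at -0.74 ± 0.52, with spots of 22.1 and 32.1 in depressive and 56 and 35.3 in control cerebellum. Kcnh7 was at -0.38 ± 0.52.

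In the prefrontal cortex the axonal subunit Kcna1 had 16203 in depressive and 13662 in control rats (0.25 ± 0.05). The SK channel genes Kcnn1 (0.15 ± 0.12) and Kcnn2 (0.13 ± 0.09) came next among members with enough signal. Kcnk1, the TWIK-1 leak channel, had 22432 in depressive and 25565 in control prefrontal cortex (-0.19 ± 0.05). Its own spots lay further apart in depressive rats, at 24172 and 20817, than in control rats, at 25591 and 25540. Kcnk2 had 6009 in depressive and 6741 in control prefrontal cortex (-0.17 ± 0.06), and Kcnd3 was at -0.15 ± 0.07. None of the 6 reached an unadjusted p under 0.05 in the fit over both tissues. Kcnk2 had opposite signs in the tissues, 0.12 ± 0.07 in cerebellum and -0.17 ± 0.06 in prefrontal cortex.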

How the data were processed

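RNA pools of 4 rats were measured on 4 arrays of 1 slide. Arrays were read with Agilent Feature Extraction 10.7.1.1, protocol GE1_107_Sep09, per the file headers. The deposited scanner files hold a background-subtracted processed intensity per spot, per the file headers. The deposited value table is a linear intensity per probe, with medians from 0.324 to 0.332, proportional to the mean intensity of a probe; the sources used here do not give the origin of its scale. The header names build rn4, which was not used.

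Outlier and control spots were left out. A probe's value was the mean log2 processed intensity of its spots, from which the array's 75th percentile was taken (4369 and 4020 for depressive and control cerebellum, 3278 and 3116 for depressive and control prefrontal cortex). A probe was well above background where 50% or more of its spots were. The lowest such signals were 7.35, 8.36, 5.64 and 8.98 on those arrays. Genes were named by RefSeq accession (assembly GRCr8; 18355 of 30367 probes), with the brightest probe per gene. The SE between spots is technical and pooled over probes in 20 brightness bins, so it is not the spread of a gene's own spots.

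Genes well above background on at least 1 array were fitted with limma 3.58.1 (lmFit, eBayes) in R 4.3.3, tested on simulated data, with Python 3.11.15 for the rest. With p-values over 4 pools, the spread between rats was not measured. Alternatives were normexp (offset 50, on the median signal, the mean signal not being used), quantile normalization, median scaling, the mean over probes, other filters, no block, the value table, and files as linked; those for single members in the fit and for the other channel genes were added after the data were seen.

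Members and lists were chosen with earlier results of these data known. Values are given in full for the members of each family with the largest tissue difference or opposite directions and, as no member reached 2-fold between states, for the 3 highest and 3 lowest per tissue among members whose signal on either array reached the 25th percentile of the signals well above background. Kcna5, Kcnh7 and Kcnj3 were added to the state values after these were seen. Values of some of the other channel genes are not reported here.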

Additional observations from a re-analysis of the deposited data

Results flagged for a closer look

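Kcnj3, the Kir3.1 subunit of G-protein-gated channels, was flagged because its difference between depressive and control rats had opposite signs in the tissues. The difference was more than 2 pooled SE between spots from 0 in each tissue. It was -0.20 in cerebellum (27951 in depressive and 32182 in control rats) and 0.11 in prefrontal cortex (21590 in depressive and 19989 in control rats), with an SE of 0.05 for each. The spots read 27904 and 27998 in depressive against 31329 and 33057 in control cerebellum, and 22798 and 20447 in depressive against 20422 and 19565 in control prefrontal cortex. In prefrontal cortex the lower depressive spot, 20447, was thus close to the higher control spot, 20422. Opposite signs were not particular to Kcnj3, as only 24 of 43 members shared a sign in both tissues. Kcnc1 was at -0.11 in cerebellum and 0.10 in prefrontal cortex, and Kcnk3 at -0.12 and 0.11. That the difference of Kcnj3 differs between tissues was not tested, since each value compares 1 pool with 1 pool.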

How the results depend on the processing

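When each scanner file was assigned to the sample it is linked to, tissue and state change places: 0 members in depressive and 0 in control rats reached 2-fold between tissues, 22 in cerebellum and 23 in prefrontal cortex reached it between states, and the fit called 0 members for tissue, 39 for state and 0 of the other channel genes for tissue. Under every other alternative tried, the counts stayed within 1.5 times: 37 to 41 members called for tissue, 20 to 24 at 2-fold in depressive and 19 to 22 in control rats, 39 to 49 of the other channel genes, and 0 members for state. Of 45 members 43 kept the sign of their tissue effect in 6 settings, the exceptions being Kcnk9 and Hcn2. Scaling moved the median tissue difference of all genes between -0.10 (normexp) and 0.08 (quantile), and the share of higher among all called genes between 41.3% and 55.3% (46.4% here); members split 14 and 26 with normexp, and 16 and 25 with quantile normalization. With normexp the fold of 8 members moved by over 1.5 times, those with dim signals. No paired analysis was possible because the replicate numbers of groups with 1 array pair nothing; the fit does carry state as a block for tissue, and without it 38 members were called in place of 39. Whether the pools of a state share rats is not given in the labels. Dim probes and 1 pool per group limit the state values.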
